A study of Mus musculus with 12 samples.

Results

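The 10 genes described here encode integrin subunits, and they were taken by name from a list: the alpha subunits Itga1, Itga2, Itga5, Itga8, Itga11 and Itgav and the beta subunits Itgb1, Itgb3, Itgb5 and Itgb8. They are 10 of the 49315 genes counted by RNA-seq in mouse adult fibroblasts (MAFs), and all 10 were among the 17416 genes with enough counts to be tested. The list was chosen with earlier results of these data known, so counts of passing subunits are not a rate for integrin genes. MAFs are primary cells grown from the ears of adult female mice, either wild type (WT, C57BL6/J) or lacking the circadian clock factor BMAL1 (KO, BMAL1 -/-). Cells of each genotype were sham irradiated (WT control and KO control) or made senescent with 20 Gy of X-rays (WT senescent and KO senescent), with 3 libraries in each of the 4 groups. Per the study's methods, irradiated cells were cultured for additional days before use, and no such interval is stated for control cells. Senescence and time in culture therefore cannot be told apart. All 4 groups were grown in 3% oxygen, treated with 100 nM dexamethasone, a glucocorticoid that synchronizes cellular clocks, and collected 12 h later. The number of animals or cultures behind the 3 libraries of a group is not given in the sources used here, so p-values measure only the spread between these libraries.

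Integrins are receptors for the extracellular matrix. Each receptor pairs 1 alpha with 1 beta subunit, and the pair decides which ligand is bound. Itga1, Itga2 and Itga11 pair with Itgb1 to bind collagens, Itga5 pairs with Itgb1 to bind fibronectin, and Itga8 pairs with Itgb1 to bind ligands such as nephronectin. Itgav pairs with Itgb1, Itgb3, Itgb5 or Itgb8 and binds vitronectin and fibronectin, and its pairs also bind the latent form of the growth factor TGF-beta, which some of them release in active form. Inside the cell, talin and kindlin bind the beta tail and link the receptor to actin.

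The WT senescent cells differed from the WT control cells in all 10 subunits, 5 of them higher and 5 lower, where 29.2% of all tested genes were higher and 27.0% lower. The RNA of Itga8, Itga11, Itgb5, Itgb8 and Itga1 was higher in WT senescent cells, and that of Itga2, Itgb3, Itgav, Itga5 and Itgb1 was lower. In KO cells Itga8, Itga11, Itgb5, Itga2, Itgb3 and Itgav moved in the same direction as in WT cells, Itgb1 rose where it had fallen in WT, and Itga1, Itga5 and Itgb8 did not pass the test. Levels below are CPM, that is, counts scaled to 1000000 per library over tested genes after TMM scaling, and changes are log2 fold changes with their standard error (SE). Adjusted p-values come from edgeR's quasi-likelihood test with Benjamini-Hochberg adjustment over all 17416 genes, and a gene passed at an adjusted p under 0.05.

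Promoters are shown for the 3 subunits that rose in both genotypes and, of the 3 that fell in both, for Itga2 and Itgav, so that the genes that moved together can be compared in sequence. Each run is the 250 bases before the gene's start in RefSeq (GRCm38.p6), read 5′ to 3′ on the gene's strand, and RefSeq entries were found for 9 of the 10 genes (none for Itgb3). Capitals mark the GC box, GGGCGG or CCGCCC on the other strand.
Itga8 (chr2:12301945-12302194, minus strand): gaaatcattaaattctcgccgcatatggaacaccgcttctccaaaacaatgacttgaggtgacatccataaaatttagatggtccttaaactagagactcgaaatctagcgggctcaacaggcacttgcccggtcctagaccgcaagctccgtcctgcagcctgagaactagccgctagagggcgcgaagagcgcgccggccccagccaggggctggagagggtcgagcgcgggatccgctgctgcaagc
Itga11 (chr9:62677605-62677854, plus strand): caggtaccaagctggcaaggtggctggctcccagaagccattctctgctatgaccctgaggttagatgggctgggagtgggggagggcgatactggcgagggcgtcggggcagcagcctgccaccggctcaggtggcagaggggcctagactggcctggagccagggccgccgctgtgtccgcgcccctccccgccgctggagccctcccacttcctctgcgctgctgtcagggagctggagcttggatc
Itgb5 (chr16:33829415-33829664, plus strand): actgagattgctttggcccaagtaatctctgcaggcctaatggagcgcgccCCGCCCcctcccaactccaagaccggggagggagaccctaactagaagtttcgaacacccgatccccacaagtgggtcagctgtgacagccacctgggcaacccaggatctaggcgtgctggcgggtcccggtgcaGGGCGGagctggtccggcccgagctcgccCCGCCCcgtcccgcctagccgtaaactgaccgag
Itga2 (chr13:114932101-114932350, minus strand): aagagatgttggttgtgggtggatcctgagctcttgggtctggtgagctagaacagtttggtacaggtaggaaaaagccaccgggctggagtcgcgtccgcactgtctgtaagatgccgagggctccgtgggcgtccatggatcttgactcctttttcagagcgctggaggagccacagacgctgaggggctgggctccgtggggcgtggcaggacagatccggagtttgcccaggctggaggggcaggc
Itgav (chr2:83724147-83724396, plus strand): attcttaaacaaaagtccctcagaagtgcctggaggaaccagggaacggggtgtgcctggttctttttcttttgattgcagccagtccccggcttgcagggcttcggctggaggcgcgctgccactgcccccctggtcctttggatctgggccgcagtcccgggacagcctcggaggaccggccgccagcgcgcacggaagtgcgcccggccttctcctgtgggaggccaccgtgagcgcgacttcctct

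Of the 5 runs, that of Itgb5 holds 3 GC boxes, which begin 199, 63 and 34 bases before the start, and the other 4 hold none. Among all 9 promoters, 3 held a GC box (Itga5, Itgb1 and Itgb5), beside 32.7% of 32851 promoters of the same length. The AP-1 site (TGACTCA or TGAGTCA) was in 0 of 9, beside 4.46% of all promoters, and the E-box CACGTG was in 0 of 9, beside 6.02%. The TEAD site (GGAATG or CATTCC) was in 1 of 9, that of Itgb1, beside 12.6%. Both strands were searched, no match overlapped that of another motif, and a match or its absence describes only these windows. RefSeq starts differ from the gene positions given below for some genes. The Itga11 window ends at 62677854, past the gene's start there at 62677826. The Itgb8 window (chr12:119238277-119238526, minus strand) lies inside the gene as given there, which ends at 119238802.

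Total counts were 23923030 to 31736083 per library, and a floor of 3 counts equalled 0.101 to 0.135 CPM, counting error only. Replicates of a group correlated at 0.984 to 0.992 over log2 CPM. WT control replicate 3 stood apart from the rest on the fourth principal component (4.57% of the variance), and calls of the 10 subunits that changed without it are named beside the results. Counts of KO control replicate 1 and KO senescent replicate 3 differed most from those of their replicates. The chi-square per degree of freedom over tested genes was 16.7 and 12.5 for the first and 18.7 and 14.2 for the second. It was 5.73 and 10.7 for WT control replicate 3. In both of these KO libraries Itga1 was the lowest, and Itga5 and Itgb1 the highest, of the group. Arntl, the gene of BMAL1, was at 29.8 to 37.4 CPM in WT libraries and 11.8 to 27.5 CPM in KO libraries, with every KO library below every WT library, so KO cells still held counts over this gene. The 9 fibroblast markers were all detected. They summed to 20000 to 20800 CPM in WT control, 9840 to 10300 in WT senescent, 25000 to 26300 in KO control and 11700 to 12200 in KO senescent libraries. In senescent cells of both genotypes Col1a1, Col1a2, Col3a1 and Vim were lower on average, and Pdgfrb, Thy1, Dcn and Lum were higher. Pdgfra was higher in WT and lower in KO. A list of 8 chondrocyte markers, the cell type of ear cartilage, summed to 8790 to 10900 CPM in WT control, 2740 to 3180 in WT senescent, 5990 to 8320 in KO control and 916 to 1120 in KO senescent libraries. All 8 chondrocyte markers exceeded 1 CPM in at least 1 group, and their part in the results was not tested. In bulk RNA, fewer cells of a type and less RNA per cell cannot be told apart. WT and KO counts came in separate tables, so genotype and any difference in handling between the tables cannot be told apart.

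**Figure D1:**
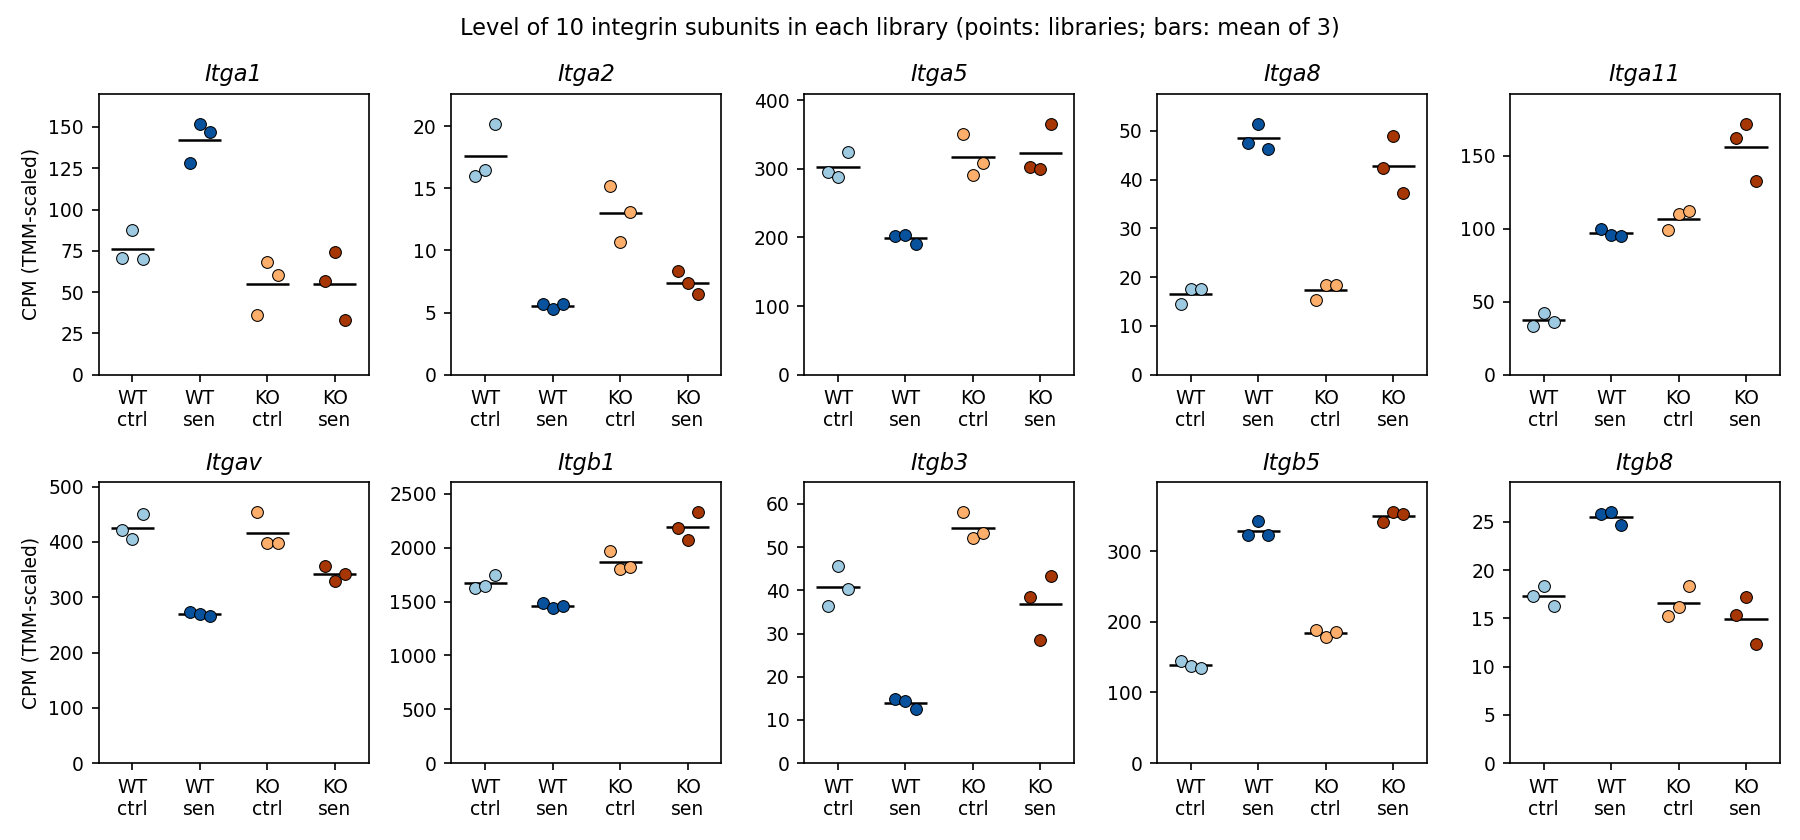
CPM (vertical axes, from 0) of each integrin subunit in the 12 libraries, grouped by genotype and state; points are libraries and bars are means of 3. In WT no senescent point overlaps the control points of its gene, and in KO those of Itga1, Itga5 and Itgb8 do. How many of all tested genes separate in this way was not counted.

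Gene positions are given in GRCm38, and all counts are over exons. Among the collagen-binding alpha subunits, Itga11 (ENSMUSG00000032243, chr9:62677826-62783982, plus strand), known mainly from fibroblasts, rose with senescence in both genotypes and was higher without BMAL1. For Itga11, WT control libraries held 33.6, 42.1 and 36.2 CPM, WT senescent ones 100, 95.5 and 94.8, KO control ones 98.9, 110 and 112 and KO senescent ones 162, 172 and 133. The KO control libraries overlapped the WT senescent ones, and no library overlapped between control and senescent cells of a genotype. The change with senescence was 1.38 (SE 0.0954, adjusted p = 8.3e-09) in WT and 0.54 (SE 0.0895, adjusted p = 0.000101) in KO cells. The difference between these changes (the interaction, KO minus WT) was -0.84 (SE 0.13, adjusted p = 0.000491). Between genotypes, Itga11 was higher in KO by 1.52 in control cells (SE 0.0956, adjusted p = 5.29e-08) and by 0.68 in senescent cells (SE 0.0896, adjusted p = 6.18e-05).

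Itga2 (ENSMUSG00000015533, chr13:114833081-114932100, minus strand), the collagen receptor subunit also known from platelets and epithelia, fell with senescence in both genotypes. For Itga2, WT control libraries held 16, 16.5 and 20.2 CPM, WT senescent ones 5.65, 5.25 and 5.71, KO control ones 15.2, 10.7 and 13.1 and KO senescent ones 8.37, 7.38 and 6.48. WT senescent libraries were the lowest of the 4 groups and WT control libraries the highest. The change was -1.66 in WT (SE 0.137, adjusted p = 1.34e-09) and -0.81 in KO (SE 0.134, adjusted p = 2.47e-05), and the interaction was 0.85 (SE 0.191, adjusted p = 0.00339). KO cells had less Itga2 than WT in the control state, -0.43 (SE 0.128, adjusted p = 0.0295), and more in the senescent state, 0.42 (SE 0.142, adjusted p = 0.0366). Both of these genotype differences were near the threshold. The first did not pass without WT control replicate 3, KO control replicate 2 or KO control replicate 3 (adjusted p up to 0.189), and the second did not pass when any WT senescent replicate or KO senescent replicate 1 or 2 was left out (up to 0.146) or with library totals alone (0.0506).

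Itga1 (ENSMUSG00000042284, chr13:114953096-115101964, minus strand), which lies beside Itga2 on chromosome 13, went the other way in WT cells. For Itga1, WT control libraries held 70.7, 87.3 and 69.8 CPM, WT senescent ones 128, 152 and 147, KO control ones 36.4, 68.3 and 60.6 and KO senescent ones 56.6, 74.4 and 33. Every WT senescent library was above all others, while the KO control and KO senescent libraries overlapped and were the most scattered of any subunit, with coefficients of variation of 30.2% (control) and 38% (senescent). The change was 0.91 in WT (SE 0.303, adjusted p = 0.0318) and -0.02 in KO (SE 0.313, adjusted p = 0.972), and the difference between them did not pass (-0.92, SE 0.435, adjusted p = 0.186). KO was lower than WT in senescent cells by -1.38 (SE 0.307, adjusted p = 0.0121), and the control-state difference of -0.46 (SE 0.311, adjusted p = 0.409) did not pass. The WT change lost its call without any 1 of WT control replicates 1 and 3 and WT senescent replicates 1, 2 and 3 (adjusted p 0.0513 to 0.0933). Itga1 shares 685 exon bases with Gm49395 on the same strand, so its count is uncertain.

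Of the listed alpha subunits that bind ligands through the RGD peptide, only Itga8 (ENSMUSG00000026768, chr2:12106632-12301922, minus strand) rose with senescence. For Itga8, WT control libraries held 14.5, 17.6 and 17.6 CPM, WT senescent ones 47.6, 51.5 and 46.3, KO control ones 15.3, 18.3 and 18.3 and KO senescent ones 42.3, 48.9 and 37.3. Both senescent groups stood clear of both control groups. The change was 1.55 in WT (SE 0.101, adjusted p = 1.45e-10) and 1.31 in KO (SE 0.101, adjusted p = 1.44e-09). Neither the interaction, -0.24 (SE 0.142, adjusted p = 0.249), nor the KO differences of 0.07 in control (SE 0.107, adjusted p = 0.763) and -0.18 in senescent cells (SE 0.0937, adjusted p = 0.185) passed, though the last passed without KO senescent replicate 2 (0.0338). Itga8 shares 372 exon bases with the antisense gene E030013I19Rik, and counting is not stated to use strand.

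Itga5 (ENSMUSG00000000555, chr15:103344286-103366763, minus strand), the alpha subunit of the main fibronectin receptor, fell in WT cells. For Itga5, WT control libraries held 295, 288 and 325 CPM, WT senescent ones 202, 204 and 190, KO control ones 351, 291 and 309 and KO senescent ones 303, 300 and 366. Only the WT senescent libraries were apart, below every other library, and the other 3 groups overlapped one another. The change was -0.61 in WT (SE 0.0805, adjusted p = 6.29e-06) and 0.03 in KO (SE 0.0798, adjusted p = 0.791), with an interaction of 0.63 (SE 0.113, adjusted p = 0.000963). KO exceeded WT by 0.70 in senescent cells (SE 0.0804, adjusted p = 9.4e-06), and the control-state value was 0.07 (SE 0.0799, adjusted p = 0.665).

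Itgav (ENSMUSG00000027087, chr2:83724397-83806916, plus strand), the alpha subunit shared by 4 of the beta subunits here, fell in both genotypes and less in KO. For Itgav, WT control libraries held 422, 406 and 450 CPM, WT senescent ones 273, 269 and 266, KO control ones 454, 398 and 399 and KO senescent ones 356, 329 and 342. The control groups overlapped, and the senescent groups were apart from them and from each other. The change was -0.66 in WT (SE 0.0571, adjusted p = 2.94e-09) and -0.29 in KO (SE 0.0568, adjusted p = 0.000202), with an interaction of 0.37 (SE 0.0804, adjusted p = 0.00236). KO was above WT by 0.34 in senescent cells (SE 0.0569, adjusted p = 0.000134), and the control-state value was -0.03 (SE 0.0567, adjusted p = 0.8). Itgav shares 634 exon bases with Gm13684 on the other strand.

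Itgb1 (ENSMUSG00000025809, chr8:128685654-128733200, plus strand), the beta subunit common to the collagen and fibronectin receptors, had small changes in opposite directions. For Itgb1, WT control libraries held 1630, 1640 and 1750 CPM, WT senescent ones 1490, 1440 and 1460, KO control ones 1970, 1800 and 1820 and KO senescent ones 2180, 2070 and 2330. The 4 groups did not overlap, in the order WT senescent, WT control, KO control and KO senescent. The change was -0.19 in WT (SE 0.0527, adjusted p = 0.0041) and 0.23 in KO (SE 0.0527, adjusted p = 0.000663), and the interaction of 0.43 passed (SE 0.0746, adjusted p = 0.000444). The WT fall depended on the scaling: it was -0.02 (adjusted p = 0.747) with library totals alone and -0.10 (adjusted p = 0.051) with upper-quartile factors. KO was above WT by 0.58 in senescent cells (SE 0.0529, adjusted p = 1.05e-07) and by 0.16 in control cells, which fell just short of the threshold (SE 0.0527, adjusted p = 0.0535) and passed in 8 of 21 other settings, among them DESeq2 (0.0371) and the fit without WT control replicate 3 (0.0259).

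Among the partners of Itgav, Itgb3 and Itgb5 changed in opposite directions. Itgb3 (ENSMUSG00000020689, chr11:104608000-104670476, plus strand), the vitronectin receptor subunit also known from platelets and osteoclasts, fell with senescence in both genotypes. For Itgb3, WT control libraries held 36.3, 45.7 and 40.3 CPM, WT senescent ones 14.8, 14.5 and 12.6, KO control ones 58.1, 52.2 and 53.3 and KO senescent ones 38.5, 28.6 and 43.4. WT senescent libraries were lowest and KO control libraries highest, and KO senescent libraries overlapped those of WT control. The change was -1.54 in WT (SE 0.141, adjusted p = 7.26e-07) and -0.56 in KO (SE 0.129, adjusted p = 0.0022), and the interaction of 0.98 (SE 0.19, adjusted p = 0.00332) was the largest in size among the 10 subunits. KO was above WT by 1.40 in senescent cells (SE 0.14, adjusted p = 1.39e-05), and the control-state difference of 0.42 fell just short (SE 0.129, adjusted p = 0.0519) and passed in 8 of 21 other settings, among them DESeq2 (0.00839).

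Itgb5 (ENSMUSG00000022817, chr16:33829665-33949338, plus strand), another vitronectin receptor subunit, rose with senescence in both genotypes. For Itgb5, WT control libraries held 144, 137 and 134 CPM, WT senescent ones 322, 343 and 322, KO control ones 189, 178 and 186 and KO senescent ones 341, 355 and 352. Its replicates were the closest together in KO, and KO control lay above WT control in every library, while the senescent groups overlapped at 341 to 343 CPM. The change was 1.25 in WT (SE 0.0503, adjusted p = 1.49e-14) and 0.92 in KO (SE 0.0497, adjusted p = 1.36e-12), with an interaction of -0.32 (SE 0.0701, adjusted p = 0.00247). KO was above WT by 0.41 in control cells (SE 0.0501, adjusted p = 6.83e-06), and the senescent-state value was 0.09 (SE 0.049, adjusted p = 0.218).

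Itgb8 (ENSMUSG00000025321, chr12:119158022-119238802, minus strand), whose pair with Itgav binds latent TGF-beta, rose in WT cells. For Itgb8, WT control libraries held 17.3, 18.4 and 16.3 CPM, WT senescent ones 25.8, 26 and 24.7, KO control ones 15.2, 16.2 and 18.4 and KO senescent ones 15.3, 17.2 and 12.3. Only WT senescent libraries stood apart, above all others. The change was 0.56 in WT (SE 0.102, adjusted p = 8.6e-05) and -0.15 in KO (SE 0.105, adjusted p = 0.222), with an interaction of -0.71 (SE 0.146, adjusted p = 0.00173). KO was below WT by -0.77 in senescent cells (SE 0.102, adjusted p = 1.09e-05), and the control-state value was -0.06 (SE 0.105, adjusted p = 0.762). The KO change of Itgb8 was -0.27 and passed (adjusted p = 0.0414) once KO senescent replicate 2 was left out.

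**Figure D2:**
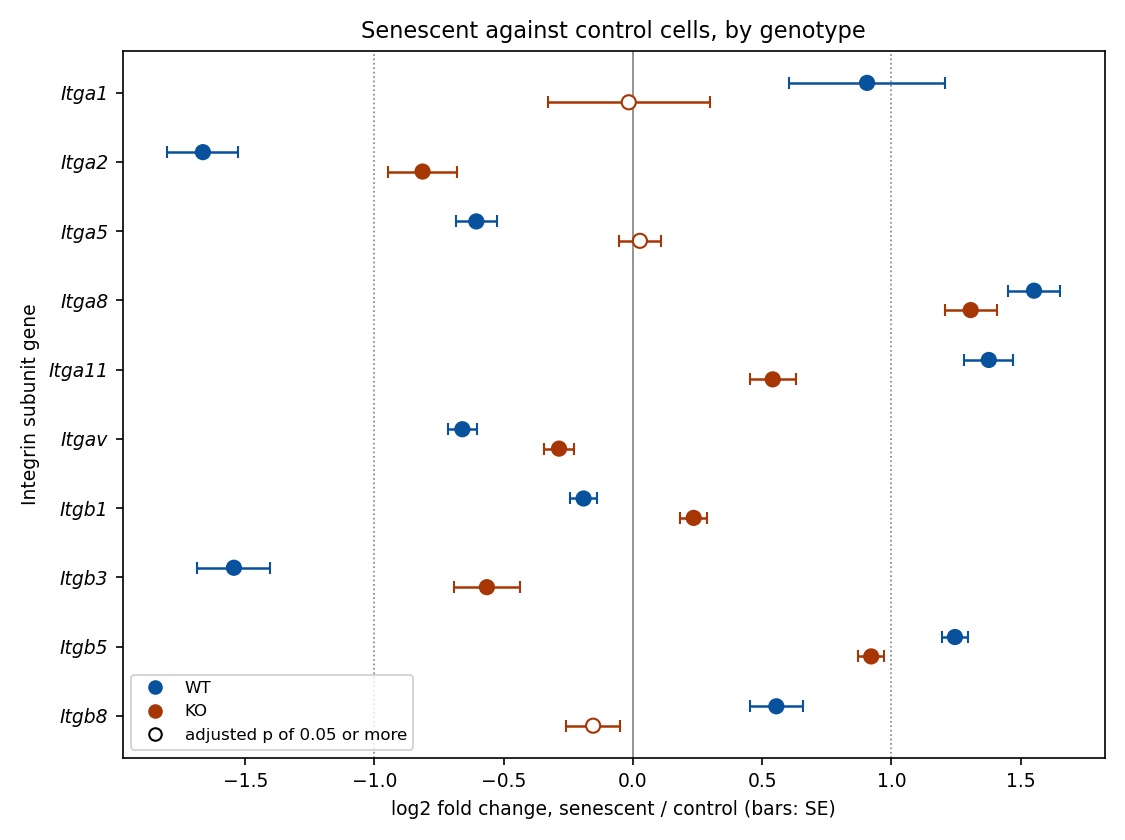
Log2 fold change of each integrin subunit, senescent over control (horizontal axis), in WT (blue) and KO (brown); bars are SE, open points did not pass, and dotted lines mark a log2 fold change of 1 in either direction. Itgb1 is the subunit that passed on opposite sides of 0 (-0.19 in WT, 0.23 in KO).

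At a log2 fold change over 1 in size, in WT senescent cells 3 subunits rose (Itga8, Itga11 and Itgb5) and 2 fell (Itga2 and Itgb3), beside 17.4% of all genes past both limits in either direction. The subunits' median change was 0.18, beside 0.025 over all genes, and their median absolute change was 1.08, beside 0.41. In KO cells, 4 were higher, 3 lower and 3 did not pass, beside 28.5% higher and 28.6% lower among all genes. Itga8 was the 1 subunit past a log2 fold change of 1 in KO, beside 18.8% of genes, and the median absolute change of 0.41 was that of all genes (0.42). Since the subunits were chosen with earlier results known, values here and below do not stand for integrin genes at large.

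The interaction passed for 8 subunits: Itga2, Itga5, Itgav, Itgb1 and Itgb3 were higher in KO relative to WT, and Itga11, Itgb5 and Itgb8 were lower. Among all genes, 9.24% passed higher and 11.7% lower. By edgeR, 0 subunits passed with an interaction over 1 in size, beside 3.66% of genes, although 8 had an unadjusted p under 0.05 and Itgb3 passed both limits with DESeq2, at 1.01. For every one of the 8 the WT change was larger in size than the KO change, apart from Itgb1. The median absolute interaction was 0.67, beside 0.28 over all genes.

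**Figure D3:**
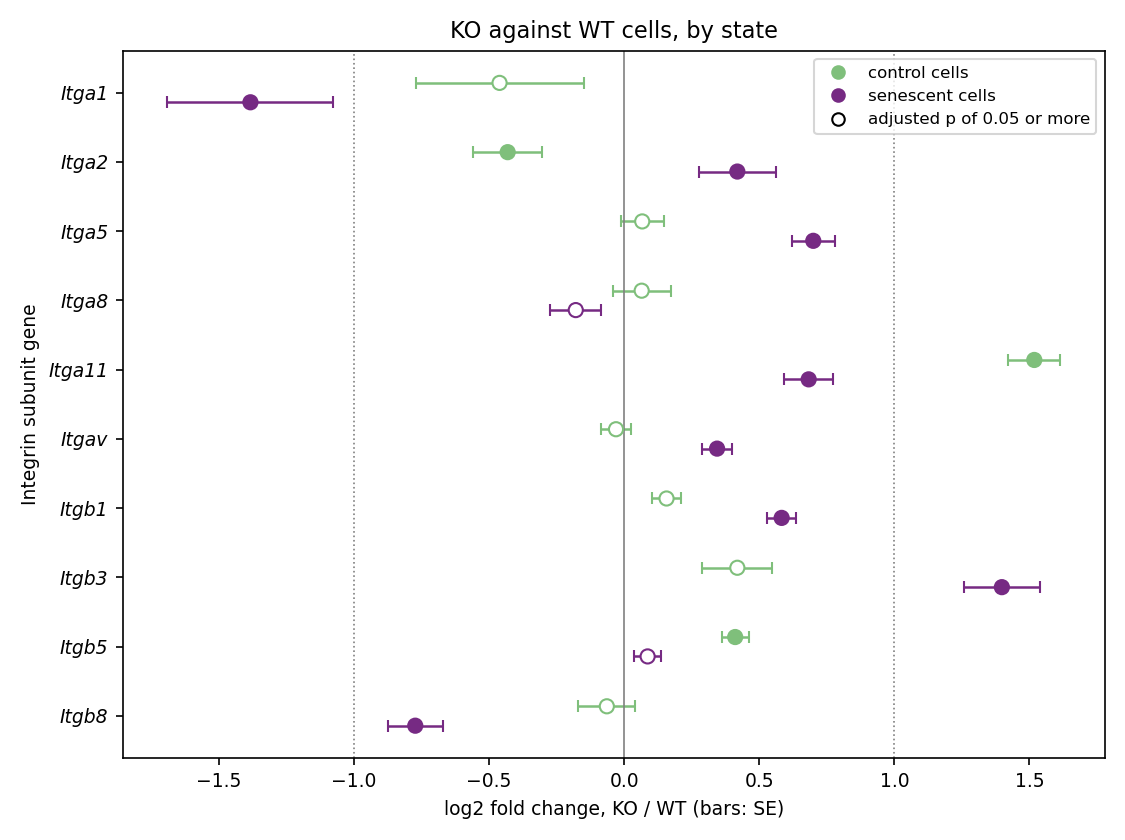
Log2 fold change of each integrin subunit, KO over WT (horizontal axis), in control (green) and senescent cells (purple); bars are SE, open points did not pass, and dotted lines mark a log2 fold change of 1 in either direction. Itga2 lies below 0 in control cells and above 0 in senescent cells.

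Between genotypes, 3 of the 10 subunits passed in control cells. Itga11 and Itgb5 were higher in KO and Itga2 lower, beside 8.07% of genes higher and 4.96% lower, and Itga11 alone exceeded a log2 fold change of 1, beside 2.54% of genes. In senescent cells, 6 subunits were higher in KO (Itga2, Itga5, Itga11, Itgav, Itgb1 and Itgb3) and 2 lower (Itga1 and Itgb8), beside 11.9% and 11.8% of genes. Itgb3 and Itga1 exceeded a log2 fold change of 1 in size, beside 3.48% of genes. The median difference in senescent cells was 0.38, beside -0.017 over all genes. The comparisons share groups, so these counts are not independent of the changes with senescence.

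Levels can be compared between subunits only per length, and for this CPM was divided by kilobases of merged exons (RPKM). In WT control cells Itgb1 was first at 409 ± 16 RPKM (SD, n = 3), followed by Itga5 at 61.4 ± 3.9, Itgav at 39.7, Itgb5 at 39 ± 1.47, Itga11 at 7.27 ± 0.856, Itgb3 at 6.91 ± 0.804, Itga1 at 4.08 ± 0.529, Itga2 at 2.46 ± 0.321, Itga8 at 2.25 ± 0.245 and Itgb8 at 1.57 ± 0.0991. Libraries of the neighbours Itgav and Itgb5, Itga11 and Itgb3, and Itga2 and Itga8 overlapped, so their order is not resolved. In WT senescent cells the order began Itgb1 (359 ± 6.7), Itgb5 (92.5 ± 3.36), Itga5 (40.3 ± 1.48), Itgav (25.1 ± 0.31), Itga11 (18.9 ± 0.585), and Itga2 was last at 0.776 ± 0.0348. In WT, Itgb5 thus moved from a level shared with Itgav, per kilobase of merged exons, to the second place. The shared level depended on the length used. With the longest transcript as length, WT control cells held Itgav at 60.4 and Itgb5 at 42.2 RPKM. In KO control cells Itgb5 was at 51.9 ± 1.66 RPKM per merged exons, above Itgav at 38.8 ± 3.01 and below Itga5. It was in the second place in KO senescent cells, at 98.3 ± 2.16 RPKM beside 31.8 ± 1.25 for Itgav and 65.5 ± 7.63 for Itga5.

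In KO cells the first place was again that of Itgb1, at 457 ± 23.4 RPKM in control and 538 ± 31.5 in senescent cells. In KO control cells Itga1, Itga8, Itga2 and Itgb8 followed one another at 2.96, 2.35, 1.83 and 1.5 RPKM with overlapping libraries. Itgb1 made up 71.3%, 64.6%, 70.2% and 68.8% of the summed RPKM of the 10 subunits in control and senescent WT cells and then in control and senescent KO cells, and Itgb5 6.8%, 16.7%, 7.98% and 12.6%. The summed level was 574 ± 20.5, 555 ± 6.5, 650 ± 32.3 and 781 ± 34.1 RPKM (SD, n = 3). With the longest transcript as length, Itgav ranked above Itgb5 in KO control cells, and some of the subunits ranked sixth to last changed places.

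**Figure D4:**
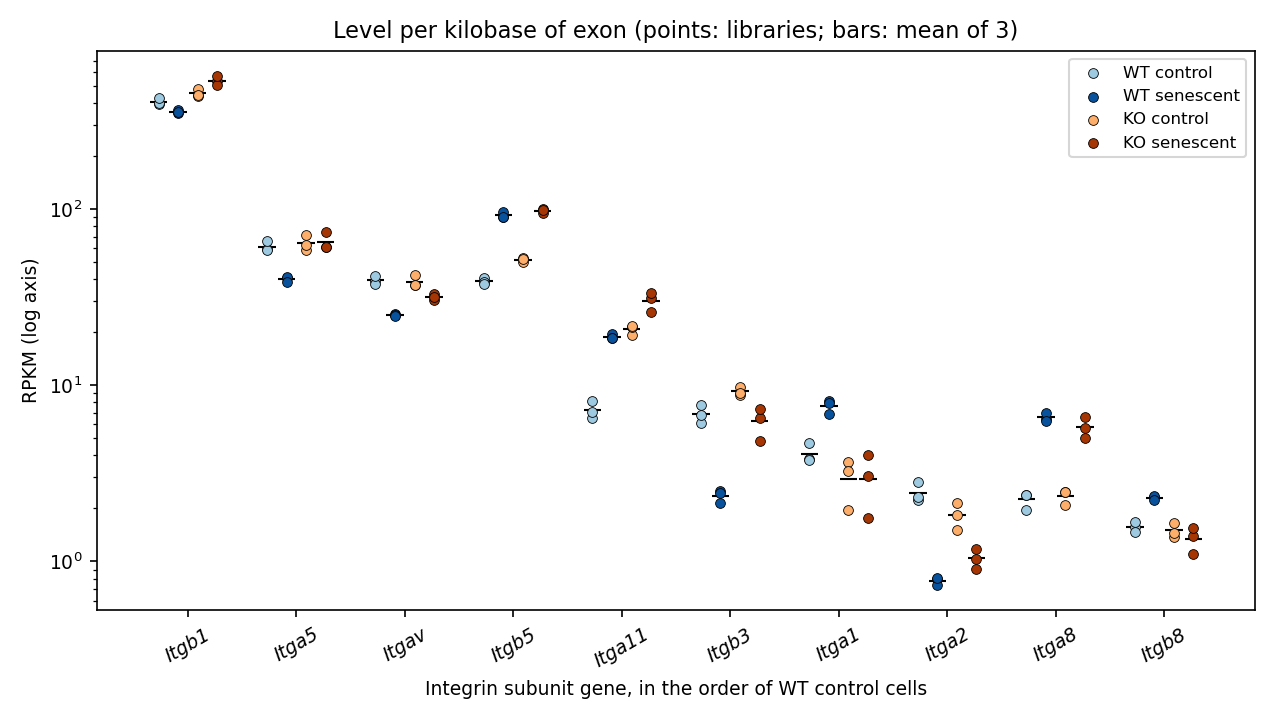
RPKM (log axis) of each integrin subunit in the 12 libraries, genes in the order of WT control cells; points are libraries and bars are means of 3. Itgb1 lies highest in every group (359 to 538 RPKM on average), and Itgb5 lies above Itga5 and Itgav in both senescent groups.

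As shares of the summed RPKM of the Itgav partners Itgb3, Itgb5 and Itgb8, the balance among these subunits shifted toward Itgb5 in both genotypes. Itgb1 and Itgb6, which also pair with Itgav, were not part of the sum. Itgb3 took 12.7%, 16.2% and 14.8% in WT control libraries, 2.62%, 2.42% and 2.25% in WT senescent, 15.3%, 14.7% and 14.3% in KO control and 6.28%, 4.55% and 6.85% in KO senescent libraries. The control groups overlapped, and every KO senescent library had a larger Itgb3 share than every WT senescent one. The share of Itgb3 fell by 12.1 percentage points in WT and by 8.86 in KO, and that of Itgb5 rose from 82.1% ± 1.85 to 95.2% ± 0.234 in WT and from 82.8% ± 0.247 to 92.8% ± 1.01 in KO (SD, n = 3). That of Itgb8 went from 3.3% ± 0.157 to 2.37% ± 0.0613 in WT, although its level rose, and from 2.4% ± 0.248 to 1.28% ± 0.219 in KO. Each of these 6 differences had an exact two-sided permutation p of 0.1, the smallest that 3 against 3 libraries allows. The shares of a library add up to the whole, so the differences within a genotype are not separate results.

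**Figure D5:**
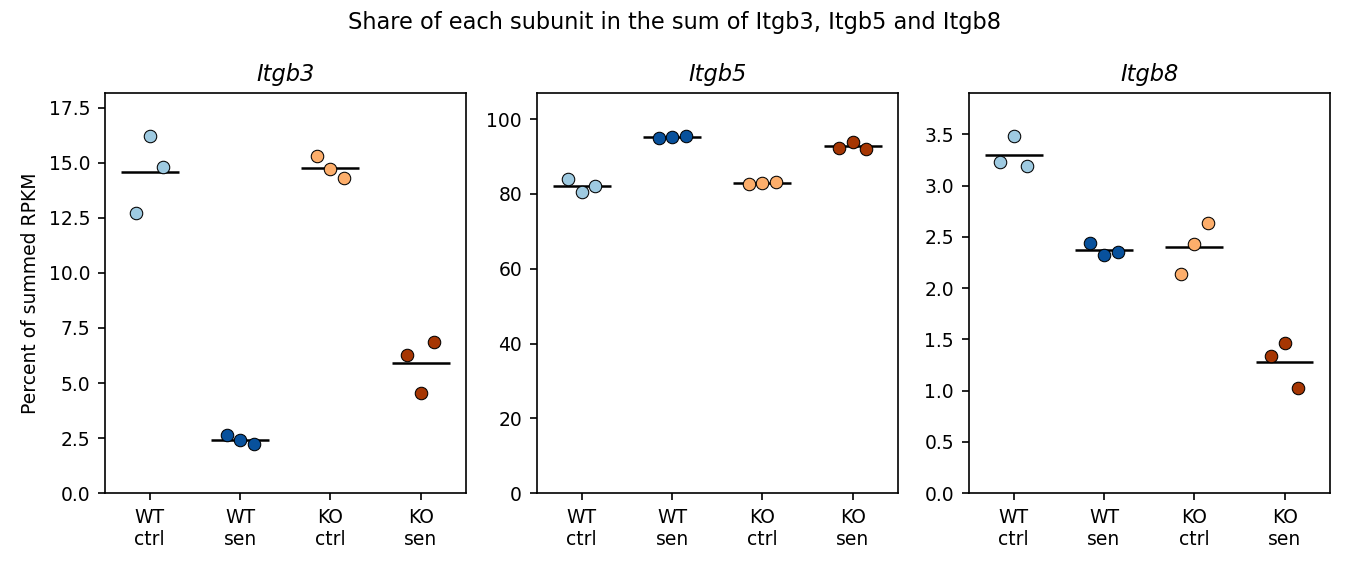
Share (percent, vertical axes from 0) of Itgb3, Itgb5 and Itgb8 in their summed RPKM in each of the 12 libraries; points are libraries and bars are means of 3. Itgb3 lies at 12.7 to 16.2% in control libraries and at 2.25 to 6.85% in senescent ones.

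Of 16 other integrin subunits, 15 were tested. In WT senescent cells 6 were higher and 4 lower, beside 29.2% higher and 27.0% lower of all genes, and in KO senescent cells 7 were higher and 4 lower, beside 28.5% and 28.6%. Itga6, a laminin receptor subunit, was at 95 ± 8.74 CPM in WT control and 46.1 ± 4.41 in WT senescent cells, and at 62.3 ± 2.88 in KO control and 55.5 ± 7.06 in KO senescent cells. It fell in WT (-1.04, SE 0.0915, adjusted p = 6.06e-08). Its KO change of -0.17 did not pass (SE 0.0913, adjusted p = 0.137), though it passed in 3 of 22 other settings. The interaction of Itga6 was 0.88 (SE 0.129, adjusted p = 0.000243). Itga3 and Itga7, the other laminin receptor alpha subunits of this list, also had interactions above 0. Itga3 rose in KO by 0.54 (SE 0.0749, adjusted p = 6.48e-06) with 0.12 in WT (SE 0.0745, adjusted p = 0.164). The WT change of Itga3 passed without WT control replicate 3 (adjusted p = 0.0407). It also passed with library totals alone (0.296, adjusted p = 0.00168) and with upper-quartile factors (0.213, adjusted p = 0.00954). Itga7 rose by 0.30 in WT (SE 0.098, adjusted p = 0.0123) and 1.11 in KO (SE 0.1, adjusted p = 5.17e-09).

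The collagen receptor subunit Itga10, known from cartilage, fell by 1.02 in WT and 1.34 in KO on the log2 scale (adjusted p = 6.04e-07 and 1.23e-08). Itgb4, the beta subunit that pairs with Itga6 in epithelia, rose in WT from 4.69 ± 0.64 to 11.7 ± 0.702 CPM and in KO from 5.39 ± 0.656 to 10.9 ± 0.186. Its interaction was below 0 and did not pass (-0.3, SE 0.18, adjusted p = 0.262). Itgb6, another Itgav partner, was at or under 0.625 CPM on average in the first 3 groups and at 1.4 ± 0.342 CPM in KO senescent cells (interaction 2.42, SE 0.613, adjusted p = 0.00754). Itga9 and Itgb7 rose and Itga2b and Itgad fell in both genotypes (all adjusted p 0.0135 or less). Itgad, a leukocyte subunit, fell in WT from 6.38 ± 0.229 to 1.13 ± 0.36 CPM and in KO from 2.63 ± 0.218 to 0.375 ± 0.122. Itgax rose in both from 0.247 and 0.124 CPM on average, Itga4 rose in WT (adjusted p = 0.0472) and Itgae fell in KO (adjusted p = 0.00572). Itgal and Itgb2 did not pass in either genotype, Itgam was too low to test, and in WT the calls of Itga4, Itga2b, Itgax, Itgb7 and Itga7 were lost in 10, 4, 3, 2 and 1 of the other settings, those of Itga4 and Itgax also without WT control replicate 3 (adjusted p = 0.17 and 0.0666).

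For integrin ligands, 27 of 29 genes were tested, from a list of 32 names that held some genes under an old and a new name. In WT senescent cells 9 were higher and 14 lower, beside 29.2% higher and 27.0% lower of all genes. In KO senescent cells 8 were higher and 15 lower, beside 28.5% and 28.6%. The median change was -0.29 in WT and -0.51 in KO, beside 0.025 and -0.003 over all genes. Col1a1, a chain of the fibrillar collagen bound by Itga1, Itga2 and Itga11, was at 7320 ± 125 CPM in control and 1750 ± 32.1 in senescent WT cells, and at 9330 ± 85.4 and 2950 ± 21.9 in KO cells. Postn, a matrix protein bound by Itgav receptors, was at 620 ± 63.6 CPM and then 259 ± 13.5 in WT, and at 2140 ± 318 and then 421 ± 59.3 in KO cells. Both fell in each genotype, as did the collagen VI chain Col6a1 (-1.62 in WT and -2.12 in KO).

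Other ligands rose. Ccn2 and Ccn3, matricellular proteins, rose by 1.05 and 3.49 in WT and by 1.38 and 2.07 in KO, and the cell surface ligand Vcam1 rose by 1.10 and 0.48. All of these passed (adjusted p 8.8e-05 or less). Without BMAL1, 19 of the 27 were higher and 2 lower in control cells, and 18 were higher and 2 lower in senescent cells, beside the 8.07% to 11.9% and 4.96% to 11.8% of all genes given above. In control cells the median KO difference of this list was 0.37, beside 0.006 over all genes.

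Among 12 genes of latent TGF-beta and its release, 5 were higher and 2 lower in WT senescent cells, beside 29.2% higher and 27.0% lower of all genes, and 3 higher and 6 lower in KO senescent cells, beside 28.5% and 28.6%. Tgfb2, a TGF-beta ligand, rose in both, by 0.93 in WT and 0.88 in KO (adjusted p = 1.32e-09 and 4.27e-09). Tgfb3 rose in WT by 0.69 (SE 0.0789, adjusted p = 4.19e-07), with -0.04 in KO (SE 0.0775, adjusted p = 0.68). Ltbp4, which holds latent TGF-beta in the matrix, rose in WT by 0.41 (adjusted p = 0.000342) and fell in KO by 0.25 (adjusted p = 0.0144). Its KO call was lost with library totals alone, with upper-quartile factors and on leaving out KO control replicate 2 or replicate 1 of KO senescent cells (adjusted p up to 0.343). Ltbp1 fell in both genotypes. Tgfbr3, a co-receptor, held 99.7 ± 8.1 CPM in WT control and 99.8 ± 7.34 in WT senescent cells, and fell in KO from 110 ± 1.11 to 78.4 ± 10.

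Of 35 adhesion proteins that bind integrin tails or their complexes, 11 were higher and 11 lower in WT senescent cells, beside 29.2% higher and 27.0% lower of all genes, and 14 were higher and 9 lower in KO senescent cells, beside 28.5% and 28.6%. Lims2, a PINCH adaptor of the integrin-linked kinase complex, rose by 1.57 in WT and 1.28 in KO (adjusted p = 2.56e-10 and 3.57e-09). Parvb, a parvin of that complex, was at 13.9 ± 1, 14.6 ± 0.819, 18.9 ± 5.39 and 36 ± 3.35 CPM in control and senescent WT cells and control and senescent KO cells, and its rise passed in KO (0.94, SE 0.152, adjusted p = 0.000144). Fermt2, the kindlin of fibroblasts, fell in both genotypes (-0.47 and -0.35). The kindlin Fermt1 was at 0 in all control libraries and at 0.268 ± 0.152 and 0.405 ± 0.08 CPM in WT and KO senescent cells, and no fold is given for it. Fermt3 and the talin Tln2 fell in KO, by 0.74 and 0.78 (adjusted p = 0.0163 and 0.00663), and the call of Fermt3 was lost in 4 of 22 other settings. Between genotypes, 15 of the 35 were higher and 2 lower in KO senescent cells, beside 11.9% and 11.8% of all genes.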

How the data were processed

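Poly(A) RNA from 12 MAF samples was sequenced as paired reads (NEBNext Ultra II libraries). Per the labels and the study's methods, the authors trimmed reads with Trimmomatic 0.36, mapped them with STAR 2.5.2b to GRCm38 and deposited raw counts of uniquely mapped reads over exons made with featureCounts; use of strand and the annotation release are not given in the sources used here. Dropped multi-mapped reads lower the counts of genes with copies. The 2 deposited tables hold 1 genotype each, and all columns were assigned to a library by its title.

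Counts were analysed in R 4.3.3 with edgeR 4.0.16 (filterByExpr; TMM, a trimmed-mean scaling of totals; robust quasi-likelihood fit over 12 libraries with 1 mean per group; DESeq2 1.42.0 as an alternative), and steps were tested on simulated data. The SE is the absolute log2 fold change divided by the square root of F. Coordinates and exon lengths came from GENCODE (GRCm38), matched for 49056 of 49315 identifiers; CPM, RPKM and SD are over 3 libraries. Floors cover counting error only, since reads without molecular identifiers are not independent molecules. The members, lists and alternatives were chosen with earlier results of these data known. Named genes were the 10 subunits, Arntl, the other tested subunits, up to 3 genes per list and direction with the largest passing change with senescence in WT or KO, and the tested gene (5 CPM or more on average) most correlated with each subunit. Marker lists of 10 cell types were summed; besides fibroblasts and chondrocytes, smooth muscle markers reached 1450 to 2350 CPM, adipocyte markers 31.5 to 70.7, Schwann cell markers 13.1 to 31.9, macrophage markers 11.8 to 21.6, keratinocyte markers 10.2 to 19.8, and endothelial, melanocyte and skeletal muscle markers at most 8.14.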

Additional observations from a re-analysis of the deposited data

Results flagged for a closer look

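Groups of 3 libraries are too small for a test of single outlying libraries, and every column was used, so the results given here are those whose change with senescence differed between KO and WT by the interaction in edgeR's test (adjusted p under 0.05): 8 of 10 subunits and 19 of 38 named genes of the lists, as log2 differences, KO minus WT. Among all genes, 9.24% passed higher and 11.7% lower; most of the named list genes were chosen for their change with senescence, so their count is not a rate for the lists. Among the subunits the values were 0.85 for Itga2, 0.63 for Itga5, -0.84 for Itga11, 0.37 for Itgav, 0.43 for Itgb1, 0.98 for Itgb3, -0.32 for Itgb5 and -0.71 for Itgb8. Itgb1 is the subunit among them with a passing fall in WT and a passing rise in KO. The other subunits gave 0.41 for Itga3, 0.88 for Itga6, 0.80 for Itga7 and 2.42 for Itgb6, which was at 1.4 CPM or less on average in every group.

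Among ligands the interaction was -1.08 for Postn, 0.33 for Ccn2, -1.42 for Ccn3, -0.62 for Vcam1, 0.41 for Col1a1 and -0.51 for Col6a1. Among the genes of latent TGF-beta it was -0.73 for Tgfb3, -0.66 for Ltbp4 and -0.49 for Tgfbr3. Adhesion proteins gave -0.92 for Tln2, which did not pass in 12 of 21 other settings (WT control replicate 3 left out among them), and 0.86 for Parvb. Partners in the plane of the membrane gave 0.27 for Cd151, -0.35 for Sdc1, -0.25 for Sdc2 and -0.59 for Tspan4. The calls of Ccn2 and Cd151 were lost in 4 and 2 of 21 other settings.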

How the results depend on the processing

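The changes of the 10 subunits kept their direction and their side of the threshold in 569 of 600 refits that left out 1 library and in 449 of 470 under other settings. The 600 include refits without a library outside the groups compared, which can alter a result only indirectly, so this share overstates the stability. Reversals touched only changes that did not pass: the KO change of Itga1 was 0.006 with DESeq2, 0.002 with DESeq2 size factors, 0.136 with library totals alone, 0.065 with upper-quartile factors, 0.014 with at least 1 CPM in 3 libraries and -0.31 to 0.245 with 1 library left out. With 1 library left out, the KO change of Itga5 was -0.075 to 0.104, and the control-state KO differences were -0.012 to 0.128 for Itga5, -0.024 to 0.147 for Itga8 and -0.094 to 0.015 for Itgav. Subunits past a log2 fold change of 1 numbered 2 in place of 1 in KO senescence with library totals alone and with upper-quartile factors, which added Itgb5, and 1 in place of 0 for the interaction with DESeq2 and with DESeq2 size factors (0 to 1 with 1 library left out; Itgb3, 1.003 to 1.13 without WT control replicate 1, WT senescent replicate 1 or 2, KO control replicate 1 or KO senescent replicate 2). For KO against WT control cells, 5 in place of 3 subunits passed with DESeq2, without a filter and with at least 1 CPM in 3 libraries (2 to 5 with 1 library left out); Itgb1 and Itgb3 were added, with 5 also without KO senescent replicate 2 or 3. The share of Itgb8 changed by -1.14 points in WT and -1.38 in KO with the longest transcript as length. Library totals alone moved the median change of all genes by 0.169 in WT and 0.153 in KO senescence.

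Pairing by replicate number was not resolved: deviations of same-numbered libraries correlated at -0.125 to 0.127, and those of different-numbered ones at -0.191 to 0.173. Of 12 libraries, 6 correlated best with their own number. With 3 libraries per group, these values cannot exclude shared cultures or handling. With the replicate block, 10, 7, 8, 4 and 8 subunits passed for WT senescence, KO senescence, the interaction, KO control and KO senescent cells (Itgb1 was added in KO control cells); with the block within genotype 9, 7, 8, 4 and 8 passed, where Itga1 was lost in WT (adjusted p = 0.0585) and Itgb3 was added in KO control cells (0.0113). The non-robust fit passed the interaction of Itga1 (0.0447), and its WT change did not pass without a filter (0.0631). The cause of these differences was not tested. Depth limits Itga2 most, with 148 counts in its lowest library.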

Other observations

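Proteins that associate with integrins in the plane of the membrane were tested for 15 of 15 listed genes. In WT senescent cells 4 were higher and 6 lower, beside 29.2% higher and 27.0% lower of all genes, and in KO senescent cells 7 were higher and 7 lower, beside 28.5% and 28.6%. The tetraspanin Cd151, which binds laminin-receptor integrins, rose in WT from 110 ± 5.6 to 187 ± 6.16 CPM and in KO from 102 ± 4.77 to 207 ± 6.85. The proteoglycan Sdc2 and the endocytic receptor Lrp1 also rose in both genotypes, and the tetraspanin Cd9 and the proteoglycan Sdc1 fell in both. Tspan4 held 139 ± 4.3 CPM in WT control and 137 ± 5.64 in WT senescent cells, and fell in KO from 166 ± 5.91 to 108 ± 4.94 (SD, n = 3).

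For each subunit, the other gene whose log2 CPM followed it most closely over the 12 libraries was found, as a description: the libraries share their 4 groups, and a high value can come from the groups alone. The pairs were Itga8 and Serinc3 (Pearson r 0.996), Itgb5 and Ak1 (0.996), Itga1 and Plce1 (0.995), Itga5 and S100a10 (0.994), Itgav and Ccnyl1 (0.993), Itga2 and Tnpo1 (0.988), Itga11 and Dbn1 (0.986), Itgb3 and Ngef (0.978), Itgb1 and Gramd4 (0.975) and Itgb8 and Maml2 (0.972). After the group means were removed, r was 0.993 for Itga1 and Plce1 and 0.972 for Itga5 and S100a10, and 0.0254 for Itgb5 and Ak1 and 0.392 for Itga11 and Dbn1.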
